A study of Mus musculus with 10 samples.

Results

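The EMT transcription factors described here are 7 genes, Snai1, Snai2, Zeb1, Zeb2, Twist1, Twist2 and Prrx1, chosen by symbol as the classical regulators of epithelial-to-mesenchymal transition (EMT) and found as 7 of the 50763 genes of the count table. They were measured by RNA-seq in lens epithelium of mice at 3 weeks of age, in 3 wild-type (WT) libraries, 3 libraries of the transgenic line OVE853 and 4 of the transgenic line OVE918. All mice were on an FVB/N background, and both lines carry a transgene in which the αA-crystallin promoter, active in the lens alone, drives secretion of an active human TGF-β1. Each library was a pool, of up to 9 mice in WT and OVE853 and up to 7 in OVE918, and the whole explanted epithelium with its anterior subcapsular plaque was taken in the transgenic mice. The pools carried no other treatment, so the spread between libraries is a spread between pools and not between single animals, and line and transgene insertion cannot be told apart. The comparisons address whether the regulators of EMT change in transcript level where TGF-β1 drives an anterior subcapsular cataract.

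SNAI1 and SNAI2 (Slug) are zinc finger repressors, ZEB1 and ZEB2 are zinc finger and homeodomain factors, TWIST1 and TWIST2 are basic helix-loop-helix factors, and PRRX1 is a paired-related homeodomain factor. TGF-β, acting through SMAD proteins, is a known inducer of several of them, and the SNAI and ZEB proteins bind E-box letters in the promoters of epithelial genes such as Cdh1 (E-cadherin) and repress them. In the lens, this programme is known from epithelial cells that turn into matrix-producing myofibroblasts in plaques, and the protein level and nuclear location of the factors, which RNA does not measure, are also regulated.

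The letters that the SNAI and ZEB zinc fingers recognize are shown in 4 promoters that bear on the comparisons below. They are those of Snai1, the member whose promoter itself holds the motif, and of Cldn3 and Tjp3, tight junction genes that fell in OVE918. Tjp3 fell in OVE853 as well. The remaining one is that of Dsp, an epithelial gene that rose in both lines. Each window covers 250 bases before to 50 bases after a RefSeq transcript start (GRCm38.p6) on the strand of the gene, and capitals mark the motif CAGGTG or its reverse complement CACCTG.
Snai1 (chr2:167537945-167538244, plus strand): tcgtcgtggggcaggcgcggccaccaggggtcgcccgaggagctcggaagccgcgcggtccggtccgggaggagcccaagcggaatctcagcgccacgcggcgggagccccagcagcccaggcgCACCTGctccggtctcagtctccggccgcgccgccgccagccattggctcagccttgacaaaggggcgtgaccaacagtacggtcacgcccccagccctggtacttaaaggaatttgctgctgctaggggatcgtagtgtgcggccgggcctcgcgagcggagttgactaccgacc
Cldn3 (chr5:134985964-134986263, plus strand): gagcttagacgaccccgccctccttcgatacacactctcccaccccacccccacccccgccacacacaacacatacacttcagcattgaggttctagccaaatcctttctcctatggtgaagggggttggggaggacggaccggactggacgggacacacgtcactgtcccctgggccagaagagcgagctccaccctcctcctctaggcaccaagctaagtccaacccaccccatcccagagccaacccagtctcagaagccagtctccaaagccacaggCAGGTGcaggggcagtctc
Tjp3 (chr10:81291532-81291831, minus strand): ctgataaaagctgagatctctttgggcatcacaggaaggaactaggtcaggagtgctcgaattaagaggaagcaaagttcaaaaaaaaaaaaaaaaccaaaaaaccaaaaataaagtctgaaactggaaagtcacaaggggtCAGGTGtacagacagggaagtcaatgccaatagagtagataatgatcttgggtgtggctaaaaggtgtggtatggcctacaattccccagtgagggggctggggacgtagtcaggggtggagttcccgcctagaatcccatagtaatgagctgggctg
Dsp (chr13:38151044-38151343, plus strand): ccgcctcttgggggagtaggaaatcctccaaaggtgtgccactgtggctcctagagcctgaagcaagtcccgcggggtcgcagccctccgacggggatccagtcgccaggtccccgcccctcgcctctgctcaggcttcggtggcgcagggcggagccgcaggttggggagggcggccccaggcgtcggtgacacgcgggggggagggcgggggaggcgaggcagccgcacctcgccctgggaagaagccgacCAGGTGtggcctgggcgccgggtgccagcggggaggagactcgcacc
Positions are counted from the start, with the first transcribed base as 1. In the windows shown, the motif began at -126 in Snai1, at 32 in Cldn3, at -108 in Tjp3 and at 4 in Dsp. Another Tjp3 window, of a different transcript start and not shown, held the motif at -17.

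Library totals lay between 24073311 and 31908525 read pairs on genes, and 3 counts in a library, the limit that a count of 0 allows, corresponded to 0.0872 to 0.136 CPM (counts per 1e6 read pairs on genes, with library totals scaled by TMM factors). Such limits cover counting error only. All 9 markers of lens epithelium on the list used here, among them Pax6, Foxe3, Cryaa and Cryab, passed the count filter, so the labelled tissue was present. WT replicate 3 stood apart in markers of some other eye cells. Its summed level of 8 retinal neuron markers was 719.2 CPM, against 28.6 to 137.3 CPM in the other 9 libraries. Its sums of Müller glia, endothelial and corneal markers were the highest as well. Vim made up most of its Müller glia sum (3246 of 4719 CPM), though the other Müller glia markers were also highest there. Kdr made up most of its endothelial sum (105.9 of 114 CPM). Esam was highest there too, whereas Pecam1, Cdh5, Cldn5, Emcn and Sox17 were lower than in any other library. Other libraries were higher in the sums of pigment cell, photoreceptor, ciliary epithelium and fibroblast markers. Aqp1 made up most of the ciliary sum. The ciliary markers Best2, Slc6a13 and Wfdc1 were higher in every WT library than in every transgenic one. This also held for the Müller glia markers Rlbp1, Glul and Aqp4, but not for Slc1a3, Kcnj10 and Vim. Krt12, the keratin that defines corneal epithelium, had 17, 17 and 140 counts in WT replicates 1 to 3 and 0 in each of the 7 transgenic libraries, which allows up to 3 counts in each. In bulk tissue, fewer cells of a type and less RNA per cell cannot be told apart. Mouse Tgfb1 had 1131, 1605 and 1446 counts in WT, 11959, 9140 and 10241 in OVE853, and 20562, 19208, 19290 and 17072 in OVE918. The groups did not overlap, and the level rose 2.69 on the log2 scale in OVE853 (SE 0.13, FDR 1.50e-06) and 3.85 in OVE918 (SE 0.13, FDR 2.29e-07). The transgene encodes the human factor, whose reads cannot be told apart here from those of the mouse gene.

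None of the EMT transcription factors was a differentially expressed gene (DEG) in either line. Zeb2 and Zeb1 were by far the most abundant of them and had 1.38-fold and 1.31-fold higher levels in OVE853 than in WT, below the 2-fold minimum and without passing the false discovery rate (FDR). Snai1 had 31 to 141 read pairs in a library, Snai2 and Twist1 had 2 to 28 and Twist2 had 0 to 4, and the intervals of Snai2 and Twist1 spanned more than 2 log2 units. A DEG was a gene with an FDR of at most 0.05 (edgeR quasi-likelihood test, Benjamini-Hochberg adjustment over 18058 genes) and a change of at least 2-fold. By this rule, 0 of the 6 members that passed the count filter were DEGs in OVE853, where 6.89% of all genes tested were, 0 in OVE918, where 8.79% were, and 0 between the lines, where 0.244% were. At the FDR alone the members again numbered 0 in each contrast, against 13.6%, 16.9% and 0.377% of all genes. At an unadjusted p under 0.05, 2 members (Zeb1 and Zeb2) passed in OVE853, 1 (Zeb1) in OVE918 and 0 between the lines, beside 32.8%, 32.5% and 17.7% of all genes. Every library of OVE853 exceeded every WT library for Zeb1 and Zeb2, a pattern of 21.0% of all genes, while in OVE918 this held for 0 members and 12.0% of all genes. DESeq2 and voom also gave 0 DEGs among the members in all 3 contrasts. At the FDR alone, DESeq2 passed 0, 1 and 0 members and voom 2, 1 and 0.

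**Figure D1:**
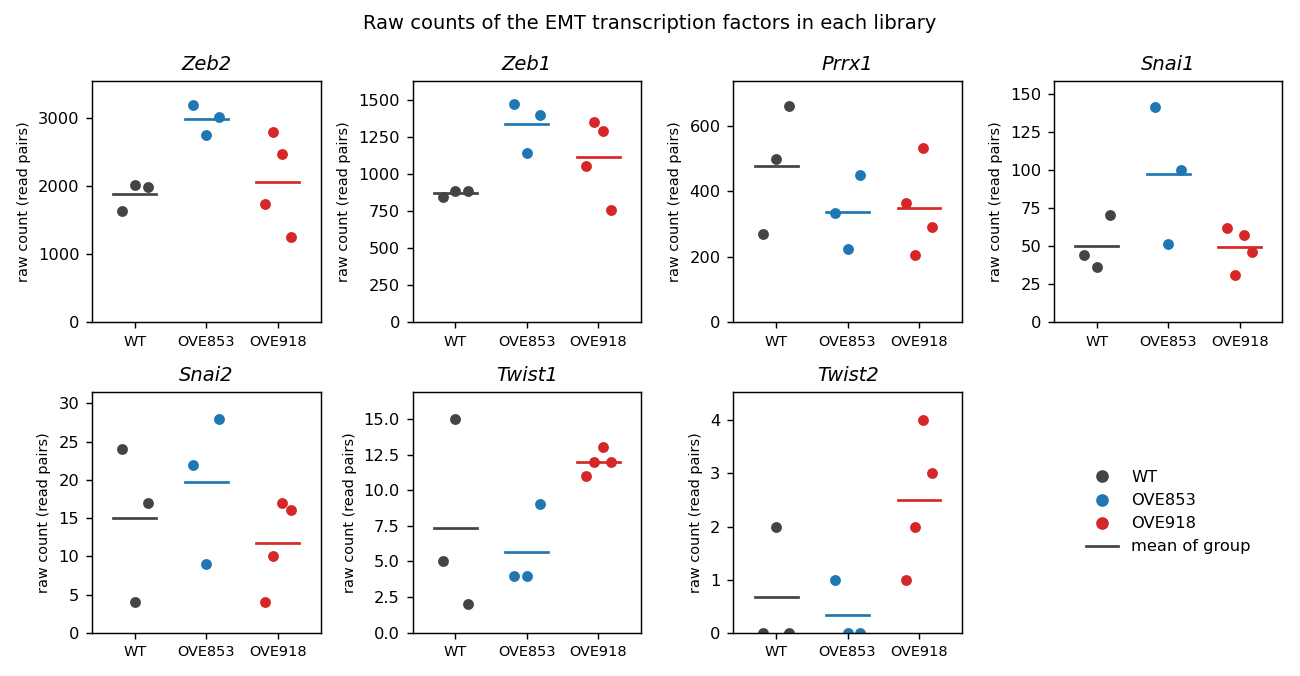
Raw counts (read pairs, linear axes from 0, scaled separately for each gene) of the 7 EMT transcription factors in the 10 libraries, with a line at the mean of each group. Zeb2 and Zeb1 lie between 759 and 3177 counts and in OVE853 above every WT library, whereas Twist2 does not exceed 4 counts.

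Per exon length, the levels spread over more than 2 orders of magnitude. Mean FPKM (read pairs per kilobase of exon and 1e6 read pairs on genes, with library totals scaled by TMM factors) in WT was 8.81 ± 0.63 for Zeb2, 5.66 ± 0.64 for Zeb1, 1.60 ± 0.47 for Prrx1, 1.14 ± 0.30 for Snai1, 0.25 ± 0.19 for Snai2, 0.17 ± 0.15 for Twist1 and 0.019 ± 0.032 for Twist2 (SD, n = 3). Zeb2 stood at percentile 88.2 and Zeb1 at percentile 83.9 of the WT level among 43252 genes with an exon length. In that order Zeb2 and Zeb1 lay further apart than their SDs, whereas Prrx1 and Snai1, Snai2 and Twist1, and Twist1 and Twist2, differed by less than theirs. In OVE853 the order of Prrx1 (1.00 ± 0.33) and Snai1 (1.89 ± 0.71, n = 3) was turned, and in OVE918 they were at 1.26 ± 0.45 and 1.20 ± 0.37 FPKM (n = 4). Zeb1 and Zeb2 together made up 78.1% to 91.9% of the summed FPKM of the members in a library. A minimum of 2 FPKM in 5 of 10 libraries, modelled on the study's filter, was applied with the exon lengths used here and not the study's own. It was met by Zeb1 and Zeb2 in all 10 libraries, while Snai1 reached 2 FPKM in 2 libraries, Prrx1 in 1 and the other members in 0.

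Zeb2, a repressor that binds paired E-boxes and is also a known regulator of neural crest and myeloid cells, lies on the minus strand of chromosome 2 from 44873644 to 45007464 (GRCm39). It had 1624, 2017 and 1977 counts in WT, 3177, 2743 and 3013 in OVE853, and 1729, 2782, 2463 and 1242 in OVE918. All 3 OVE853 libraries exceeded all 3 WT libraries, whereas OVE918 reached from below the lowest WT library into the range of OVE853. The corresponding TMM-scaled levels were 65.1 to 75.1 CPM in WT, 92.3 to 99.3 CPM in OVE853 and 56.4 to 101.1 CPM in OVE918. The log2 fold change was 0.46 in OVE853 (SE 0.18, 95% interval 0.07 to 0.85, FDR 0.102) and 0.18 in OVE918 (SE 0.17, interval -0.19 to 0.55, FDR 0.496), both by edgeR's quasi-likelihood test. Both intervals lie below a doubling. Between OVE918 and OVE853 the difference was -0.28 (interval -0.64 to 0.08, FDR 0.395), so that a difference between the lines was not shown. Without WT replicate 3 the values were 0.38 in OVE853 (FDR 0.273) and 0.12 in OVE918 (FDR 0.748). Without OVE918 replicate 4, which had the lowest Zeb2 level and enters the shared estimate of the spread, the FDR of Zeb2 in OVE853 was 0.0331 at a log2 fold change of 0.46.

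Macrophages also express Zeb2. The summed level of the 11 macrophage markers, all detected, was 18.7 to 44.5 CPM in WT, 44.2 to 70.2 CPM in OVE853 and 29.9 to 76.1 CPM in OVE918. In each line 10 of the 11 had a positive log2 fold change, of which only C1qa in OVE918 was a DEG. Mrc1 went the other way and was a reduced DEG in both lines by edgeR. Its values were -4.16 in OVE853 (FDR 0.00133) and -3.57 in OVE918 (FDR 0.00075). OVE918 replicate 4 had the highest macrophage sum (76.1 CPM) and the lowest Zeb2 level (56.4 CPM), while all 3 OVE853 libraries had more Zeb2 than every WT library and 2 of them also had a higher macrophage sum. The part of these cells in the Zeb2 level was not tested.

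Zeb1, the close relative of Zeb2 and the best known repressor of Cdh1, lies on the plus strand of chromosome 18 from 5591851 to 5775467 (GRCm39). Its counts were 845, 887 and 883 in WT, 1472, 1140 and 1400 in OVE853, and 1052, 1351, 1294 and 759 in OVE918. The WT libraries were close together, every OVE853 library was higher, and in OVE918 replicates 1 to 3 exceeded WT while replicate 4 did not. On the TMM scale, WT ranged from 29.1 to 36.5 CPM, OVE853 from 40.5 to 46.1 CPM and OVE918 from 34.5 to 49.1 CPM. The log2 fold change was 0.39 in OVE853 (SE 0.14, interval 0.09 to 0.69, FDR 0.0762) and 0.40 in OVE918 (SE 0.13, interval 0.12 to 0.68, FDR 0.0551), in the same edgeR fit. The intervals of both lines exclude 0 before adjustment and exclude a doubling. Between the lines the difference was 0.01 (interval -0.27 to 0.29, FDR 0.982). Zeb1 passed the FDR in OVE918 with DESeq2 (0.0263) and in both lines without OVE918 replicate 4 (0.0330 in OVE853 and 0.0104 in OVE918) or WT replicate 1 (0.0480 and 0.0382), always with a change of less than 2-fold. Without WT replicate 3, the library with the highest sum of retinal neuron markers, the values were 0.28 in OVE853 (FDR 0.261) and 0.31 in OVE918 (FDR 0.176). Antisense transcripts overlap both genes and were counted by strand. Zeb1os1 had 7 to 30 counts and Zeb2os 111 to 161 in a library, few beside the counts of Zeb1 and Zeb2.

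Snai1, the early TGF-β target among these repressors, lies on the plus strand of chromosome 2 from 167380113 to 167384734 (GRCm39). It had 44, 36 and 70 counts in WT, 141, 51 and 100 in OVE853, and 62, 31, 57 and 46 in OVE918. OVE853 replicates 1 and 3 were the 2 highest of the 10 libraries, but OVE853 replicate 2 fell inside the WT range, and OVE918 covered about the same range as WT. The log2 fold change was 0.73 in OVE853 (SE 0.38, interval -0.10 to 1.56, FDR 0.201) and 0.08 in OVE918 (SE 0.36, interval -0.71 to 0.86, FDR 0.907). Against OVE853, OVE918 differed by -0.65 (interval -1.42 to 0.11, FDR 0.350), again by edgeR. A doubling in OVE853 is therefore neither shown nor outside the interval. Without OVE853 replicate 1 the log2 fold change was 0.44 (FDR 0.525), and without OVE853 replicate 2 it was 1.00 (FDR 0.125). Among the OVE853 libraries, Snai1 (4.10, 1.81 and 3.30 CPM) had the same order as the summed macrophage markers (70.2, 44.2 and 63.7 CPM), as it had in WT. In OVE918 the library with the lowest Snai1 level (1.13 CPM in replicate 2) also had the lowest macrophage sum (29.9 CPM). The highest macrophage sum of OVE918 (76.1 CPM in replicate 4) did not go with its highest Snai1 level. Snai1 was at 2.09 CPM there, against 2.545 CPM in replicate 1, where the sum was 64.3 CPM. The part of these cells in the Snai1 level was not tested. Leaving out WT replicate 3 gave 0.90 in OVE853 (FDR 0.212) and 0.26 in OVE918 (FDR 0.745).

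Snai2, the second SNAI repressor and a neural crest factor, lies on the plus strand of chromosome 16 from 14523425 to 14527252 (GRCm39). It had 24, 4 and 17 counts in WT, 22, 9 and 28 in OVE853, and 4, 10, 17 and 16 in OVE918. The groups overlapped throughout, and each held libraries that differed several-fold. The log2 fold changes were 0.13 in OVE853 (interval -1.35 to 1.61, FDR 0.912) and -0.30 in OVE918 (interval -1.74 to 1.13, FDR 0.790) by edgeR, so that a doubling and a loss of 2-fold were both within the interval and not detectable at this depth. Its sign turned with the library left out, from -0.34 to 0.80 in OVE853 and from -0.75 to 0.37 in OVE918. By voom the values were 1.20 (FDR 0.222) and 0.61 (FDR 0.619).

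Twist1, a basic helix-loop-helix factor of head mesenchyme and neural crest, lies on the plus strand of chromosome 12 from 34007645 to 34009828 (GRCm39). It had 5, 15 and 2 counts in WT, 4, 4 and 9 in OVE853, and 11, 12, 13 and 12 in OVE918. The 4 OVE918 libraries were nearly equal and above all 3 OVE853 libraries, while WT spanned the whole range. The log2 fold change was -0.58 in OVE853 (interval -2.06 to 0.90, FDR 0.576) and 0.76 in OVE918 (interval -0.54 to 2.07, FDR 0.405), and between the lines it was 1.34 (SE 0.61, interval -0.0028 to 2.69, FDR 0.283, edgeR). Against WT its values without WT replicate 3 were -1.10 and 0.27 (FDR 0.291 and 0.817), and without WT replicate 2 they were 0.43 and 1.79 (FDR 0.713 and 0.0880). Of all genes tested, 11.0% had all OVE918 libraries above all OVE853 libraries. Twist2, its paralog, lies on the plus strand of chromosome 1 from 91729176 to 91796542 (GRCm39) and had 0, 2 and 0 counts in WT, 1, 0 and 0 in OVE853, and 1, 2, 4 and 3 in OVE918. Every WT and OVE853 library was at or under 3 counts, and 9 of 10 libraries in all, so no fold change is given. Twist2 did not pass the count filter. In an exact two-sided permutation test of its CPM, p was 1 for OVE853 against WT (smallest possible 0.1), 0.143 for OVE918 against WT and 0.0571 for OVE918 against OVE853 (smallest possible 0.0571 for both), so that none of these comparisons could pass 0.05.

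Prrx1, a homeodomain factor of limb and craniofacial mesenchyme, lies on the minus strand of chromosome 1 from 163041844 to 163142033 (GRCm39). It was the one member beside the ZEB genes with at least 205 counts in every library. It had 271, 500 and 660 in WT, 334, 223 and 450 in OVE853, and 364, 205, 532 and 292 in OVE918. The groups overlapped, with the lowest library of each line below WT replicate 1 and the highest library of all in WT. The log2 fold change was -0.68 in OVE853 (SE 0.35, interval -1.46 to 0.10, FDR 0.204) and -0.34 in OVE918 (SE 0.33, interval -1.07 to 0.38, FDR 0.511) by edgeR, and a doubling was outside both intervals, whereas a halving was inside them. The highest Prrx1 count was that of WT replicate 3, and without this library the values were -0.52 (FDR 0.442) and -0.15 (FDR 0.844). Of the 8 markers of fibroblasts and stroma, Kera was at 0 in every library, and Pdgfra and Col6a3 made up most of the sum, which was 306.3 to 579.8 CPM in WT, 916.6 to 1016 CPM in OVE853 and 540.7 to 777.7 CPM in OVE918. WT replicate 3 had the lowest of these sums, but the highest level of Dcn (2.21 CPM) of all libraries, and the part of stromal cells in the Prrx1 level was not tested.

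**Figure D2:**
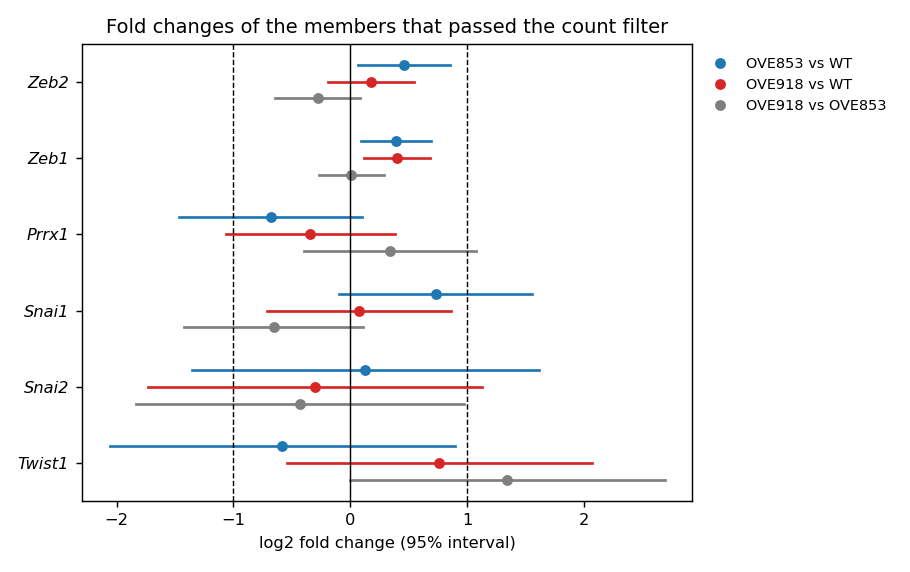
Log2 fold changes (points) with unadjusted 95% intervals (lines) of the 6 members that passed the count filter, for each line against WT and for OVE918 against OVE853, with dashed lines at a 2-fold change. The intervals of Zeb1 and Zeb2 are narrow and end below a doubling (0.69 and 0.85 in OVE853), whereas those of Snai2 and Twist1 span more than 2 log2 units.

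Over the 6 members the median log2 fold change was 0.26 in OVE853 and 0.13 in OVE918, beside medians of -0.0052 and 0.013 over all genes tested, and 4 of 6 members had a positive value in each line. With a library left out the median moved by more than 1.5 times, in OVE853 to 0.02 without OVE853 replicate 3, to 0.44 without OVE853 replicate 2, and to 0.47 and 0.41 without WT replicates 1 and 2, and in OVE918 to 0.28, 0.07 and 0.19 without WT replicates 1, 2 and 3. Both lines were set against the same WT libraries. Across the 10 libraries, Zeb1 and Zeb2 had the most similar profiles of any member pair (Pearson's r of log2 CPM 0.77), and the other pairs lay between -0.50 and 0.42. These are descriptions over libraries that share group, depth and tissue composition. The gene most like Zeb2 was Rock1 (r 0.98), followed by Chd8 and Prkdc (both 0.97). For Zeb1 these were Ank2 (0.98), Gdap10 and Gm40518 (both 0.97). For Snai1 they were Myo1f (0.93), Ptgs1 (0.91) and Gm8170 (0.90), for Snai2 Rbm11 (0.92), Gm39675 (0.91) and Trim7 (0.88), for Twist1 Taf9-ps (0.92), Gorasp2 (0.91) and Gm16436 (0.90), and for Prrx1 Dok4 (0.91), 6330549D23Rik (0.90) and Fndc4 (0.89), each among the 3 highest r values over 18057 other genes.

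The wider EMT factor list held genes that did change. Of 20 further EMT transcription factors and partners, 15 were tested, and 2 rose and 1 fell as DEGs in OVE853 while 1 rose and 2 fell in OVE918, beside 3.17% of all genes elevated and 3.72% reduced in OVE853 and 3.45% elevated and 5.34% reduced in OVE918. Lef1, the HMG box partner of β-catenin, had 4, 5 and 0 counts in WT, 80, 18 and 32 in OVE853, and 59, 32, 72 and 59 in OVE918, without overlap. It rose 3.51 on the log2 scale in OVE853 (SE 0.77, FDR 0.0162) and 4.22 in OVE918 (SE 0.75, FDR 0.00333), of which the former was no DEG without OVE853 replicate 1. Prrx2, the paralog of Prrx1, had 94, 124 and 81 counts in WT, 284, 195 and 276 in OVE853, and 197, 192, 183 and 167 in OVE918. It rose 1.10 in OVE853 (SE 0.21, FDR 0.00892), whereas its change of 0.95 in OVE918 (SE 0.20, FDR 0.00871) passed the FDR but not the 2-fold minimum. Without WT replicate 3 its value in OVE853 was 0.87 (FDR 0.0116), and it was no DEG without OVE853 replicate 3 either. Runx2, the master factor of bone, had 25 to 38 counts in WT and 5 to 16 in the transgenic libraries. The OVE853 libraries showed a fall of 1.98 (SE 0.43, FDR 0.0144), which was no DEG without OVE853 replicate 2 or 3. In OVE918 the value was -1.25 (SE 0.38, FDR 0.0448), a DEG that was kept in only 1 of 10 fits with a library left out. Foxc1, a forkhead factor of the anterior eye segment, fell by 1.92 in OVE918 (SE 0.46, FDR 0.0152) and had a value of -1.19 in OVE853 (FDR 0.109). The abundant Yap1 (105.6 ± 14.4 CPM in WT) and Tcf4 (87.4 ± 15.4 CPM, n = 3) did not pass in either line. Of 19 co-repressors and regulators of SNAI and ZEB stability, all tested, 0 were DEGs in either line by edgeR. At the FDR alone, Suz12 (0.47) was higher and Fbxl14 (-0.49) lower in OVE853, and Hdac2 (0.43) and Kdm1a (0.30) were higher and Btrc (-0.40) and Fbxl14 (-0.50) lower in OVE918, all named after their values were seen. DESeq2 and voom also called 0 of them as DEGs, and at an unadjusted p under 0.05 edgeR passed 7 of 19 in OVE853 and 10 of 19 in OVE918, where 32.8% and 32.5% of all genes passed. Ctbp1, a co-repressor that ZEB proteins recruit, was at 117.8 ± 10.9 CPM in WT (n = 3) and had log2 fold changes of -0.28 and -0.20 (FDR 0.0869 and 0.168).

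Factors that hold cells in the epithelial state formed a list of 12, of which 6 passed the filter. Of these, 1 was a DEG in each line, reduced in both, beside 3.72% of all genes reduced in OVE853 and 5.34% in OVE918. It was Ehf, an ETS factor of surface epithelia, with 113, 141 and 187 counts in WT. Ehf had 20, 23 and 13 counts in OVE853, and 12, 8, 6 and 8 in OVE918. The log2 level dropped by 3.15 in OVE853 (SE 0.33, FDR 0.00026) and dropped by 3.99 in OVE918 (SE 0.32, FDR 2.33e-05), without overlap. Ehf is also known from corneal epithelium, and the summed level of 5 corneal markers was 3.15, 7.85 and 17.6 CPM in the WT libraries against 0.908 to 3.10 CPM in the transgenic ones. Its part in the Ehf level was not tested. Klf4 and Gata3, the most abundant of the list, had values of 0.55 and 0.96 in OVE853 and of 0.80 and 0.28 in OVE918. Neither passed the FDR (0.0818 to 0.593). Elf3, named after its values were seen, was higher in OVE918 (0.77, FDR 0.0363), a change of less than 2-fold. In OVE853 the value of Elf3 was 0.59 (FDR 0.110).

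On the input side, all 18 genes of TGF-β and BMP signalling were tested. Tgfb1, whose reads may include those of the transgene, was the only DEG in either line, beside 6.89% and 8.79% of all genes. At the FDR alone, Smad3 (0.57, FDR 0.0336) was higher and Id4 (-0.87, FDR 0.0323) lower in OVE853. In OVE918, Tgfb3 was higher (0.59, FDR 0.0337). Smad3, Id4 and Tgfb3 were named after their values were seen. Tgfb2, another ligand and among the 2 most abundant genes of the list in WT, had log2 fold changes of -0.19 and -0.24 (FDR 0.199 and 0.0977), and Id3, a target of BMP signalling, of 0.28 and -0.39 (FDR 0.196 and 0.0642).

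Of 22 genes known as mesenchymal outcomes of EMT, 21 were tested, and part of them rose in each line. In OVE853, 8 rose and 0 fell as DEGs, beside 3.17% of all genes elevated and 3.72% reduced, with a median log2 fold change of 0.70 (0.45 without WT replicate 3 and 1.06 without WT replicate 1). In OVE918, 7 rose and 1 fell, beside 3.45% and 5.34% of all genes, with a median of 0.67. The 1 that fell was Cdh11, a cadherin of mesenchyme (-1.12, SE 0.23, FDR 0.00753), named after its values were seen. Its groups overlapped, and it was no DEG without WT replicate 1 or without WT replicate 3. Several genes of this list are among those the study chose on these samples, so the counts are not independent evidence of its direction. Tgfbi, a matrix protein named for its induction by TGF-β, had 87, 106 and 83 counts in WT, 2910, 1561 and 3163 in OVE853, and 2659, 2581, 3928 and 3239 in OVE918, a rise of 4.55 (SE 0.29, FDR 1.50e-05) and 5.15 (SE 0.29, FDR 4.31e-06). Tagln, an actin-binding protein of smooth muscle, rose from 13 to 34 counts in WT to 153 to 342 in OVE853 and 257 to 814 in OVE918 (3.24 and 4.48, SE 0.64 in both, FDR 0.0114 and 0.00126), and without WT replicate 3 the OVE853 value was 2.87 (FDR 0.0552). Tnc, the matrix protein tenascin C, rose by 3.03 and 3.81 (SE 0.56 in both, FDR 0.00919 and 0.00162), and by 4.19 and 5.00 without WT replicate 3, which had 322 of its counts against 47 and 65 in the other WT libraries. Col1a1, fibrillar collagen of scars, rose by 2.81 and 3.20 (SE 0.55 in both, FDR 0.0126 and 0.00378). Col1a1 in OVE853 was, without WT replicate 3, at 2.56 (FDR 0.0662). Cdh2 (N-cadherin) was at 298.7 ± 89.2 CPM in WT and 483.6 ± 35.2 CPM in OVE853 (n = 3), which passed the FDR (0.70, FDR 0.0466) but not the 2-fold minimum, and had a value of 0.51 in OVE918 (FDR 0.0906). With WT replicate 3 left out these values were 0.45 (FDR 0.0927) and 0.29 (FDR 0.234). Acta2, smooth muscle actin, passed the FDR only in OVE918 (0.67, FDR 0.0457) and had a value of -0.26 in OVE853 (FDR 0.428), with a difference between the lines of 0.93 (FDR 0.0807) and an FDR of 0.0544 in OVE918 without WT replicate 3. Vim, already at 3357 ± 178 CPM in WT (n = 3), had values of -0.15 and 0.01 (FDR 0.381 and 0.954), and Sparc (5328 ± 641 CPM) of -0.01 and -0.14. Without WT replicate 3, OVE853 replicate 1 or OVE853 replicate 3, the count in OVE853 was 5 elevated in place of 8, and over all libraries left out in turn it lay between 5 and 9 in OVE853 and 7 and 9 in OVE918.

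Of 25 epithelial target genes, 18 were tested. In OVE853, 1 rose and 1 fell as DEGs, beside 3.17% and 3.72% of all genes, with a median log2 fold change of -0.27 (-0.09 without WT replicate 3). In OVE918, 1 rose and 6 fell, beside 3.45% and 5.34% of all genes, with a median of -0.46. Cdh1, the classical target of SNAI and ZEB repression, had 7825, 10270 and 7346 counts in WT, 6441, 6117 and 5012 in OVE853, and 4476, 7444, 5384 and 4437 in OVE918. On the TMM scale it was at 320.6 ± 71.8 CPM in WT, 189.9 ± 26.2 CPM in OVE853 (n = 3) and 212.4 ± 39.4 CPM in OVE918 (n = 4). It passed the FDR in both lines with a change of less than 2-fold (-0.76, SE 0.19, FDR 0.0288 and -0.59, SE 0.18, FDR 0.0439), and without WT replicate 3 its values were -0.95 (FDR 0.00424) and -0.77 (FDR 0.00629). Tjp3, a scaffold of tight junctions named as the only reduced DEG of the list in OVE853, had 68, 61 and 94 counts in WT, 29, 21 and 25 in OVE853, and 21, 36, 32 and 16 in OVE918. All transgenic libraries were below all WT libraries, with log2 fold changes of -1.78 (SE 0.29, FDR 0.00369) and -1.44 (SE 0.26, FDR 0.00384). Cldn1, a tight junction claudin, fell by 2.66 in OVE918 (SE 0.36, FDR 0.00062), where it had 53, 38, 89 and 30 counts against 465, 226 and 313 in WT, and had a value of -0.96 in OVE853 (FDR 0.0988). Cldn3, another claudin, had 36, 27 and 44 counts in WT, 17, 12 and 20 in OVE853, and 1, 4, 8 and 8 in OVE918, a fall of 2.66 in OVE918 (SE 0.49, FDR 0.00408) and a value of -1.33 in OVE853 (FDR 0.0885). Krt8, a keratin of simple epithelia, had 15, 6 and 65 counts in WT, 12, 15 and 20 in OVE853, and 2, 0, 5 and 6 in OVE918. Its value of -2.92 in OVE918 (SE 0.85, FDR 0.0394) was a DEG in only 3 of 10 fits with a library left out. Without WT replicate 3 it was -1.70 (FDR 0.220). That library had the highest sums of corneal, retinal neuron and Müller glia markers. The part of such cells in the Krt8 level was not tested. Dsp, desmoplakin of desmosomes, went the other way, from 6, 5 and 7 counts in WT to 41, 33 and 59 in OVE853 and 31, 36, 49 and 64 in OVE918, a rise of 2.65 (SE 0.44, FDR 0.00371) and 2.98 (SE 0.42, FDR 0.00086). Tjp1, the abundant scaffold of tight junctions, had values of 0.24 and 0.16 (FDR 0.433 and 0.617). Cgn and Crb3, named after their values were seen, were also reduced DEGs in OVE918. Cgn fell by 1.85 (SE 0.12, FDR 6.30e-06) and stayed a DEG in 10 of 10 fits with a library left out. In OVE853 its value of -0.88 (FDR 0.00180) passed the FDR but not the 2-fold minimum. Crb3 (-1.34, SE 0.38, FDR 0.0332) was a DEG in only 3 of 10 such fits in OVE918. With single libraries left out, between 4 and 6 genes of the list fell in OVE918.

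**Figure D3:**
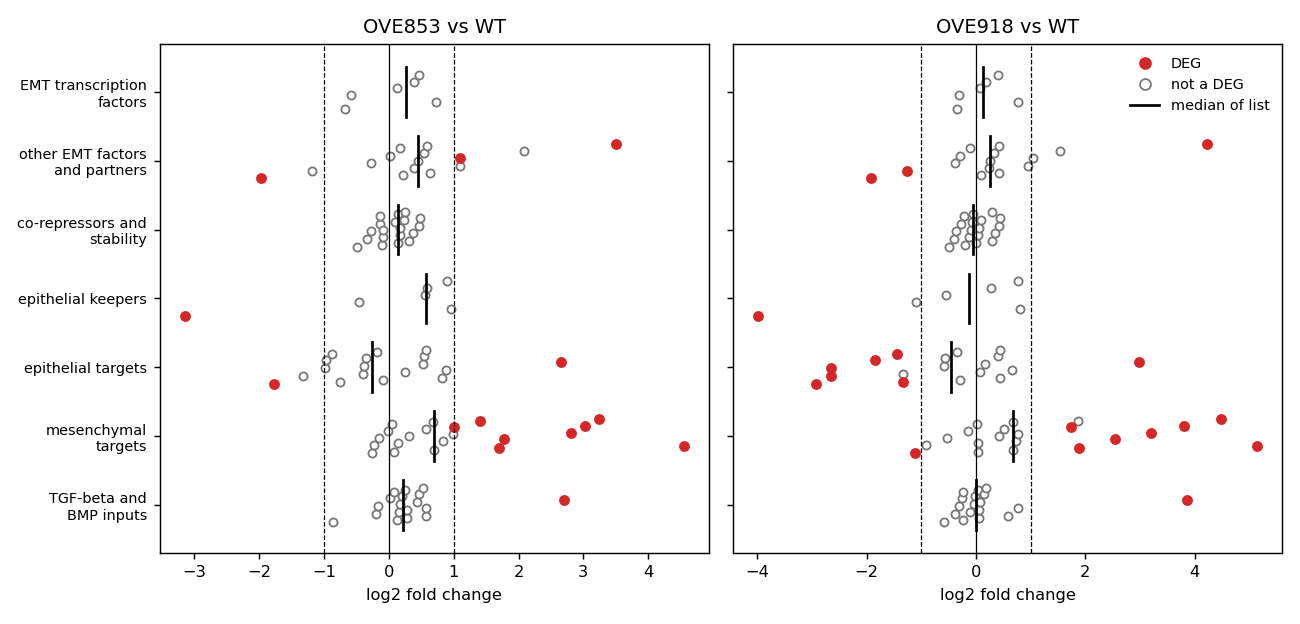
Log2 fold changes of every tested gene of 7 lists in OVE853 (left) and OVE918 (right) against WT, with DEGs filled, the median of each list as a vertical bar and dashed lines at a 2-fold change. No EMT transcription factor lies beyond the dashed lines, while 8 and 7 of the 21 mesenchymal targets are elevated DEGs and 6 of the 18 epithelial targets are reduced DEGs in OVE918.

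The E-box letters shown above were searched in the promoter windows of all lists. CAGGTG on either strand was present in the windows of 6098 of 27025 genes (22.6%). Among the 18 epithelial targets that matched a window by symbol, 13 held it (72.2%), and among the 7 matched epithelial keepers 3 did (42.9%), whereas 1 of 14 matched mesenchymal targets (Sparc, 7.14%), 1 of 11 further EMT factors and partners (9.09%), 2 of 13 co-repressors (15.4%) and 0 of 12 TGF-β and BMP genes held it. The epithelial list was drawn up from textbook targets of these factors, so its share is a description. Cdh1 had no window by symbol and was not searched, nor were Snai2 and Zeb1. Of 5 members with a window, Snai1 held the motif and Zeb2, Twist1, Twist2 and Prrx1 did not. Of the 6 epithelial targets that fell in OVE918, 4 held the motif, of the 7 matched ones that were no DEG, 5 did, and Dsp, which rose, held it as well. Of the mesenchymal targets that rose, 0 of 4 matched in OVE853 and 0 of 3 in OVE918 held it.

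**Figure D4:**
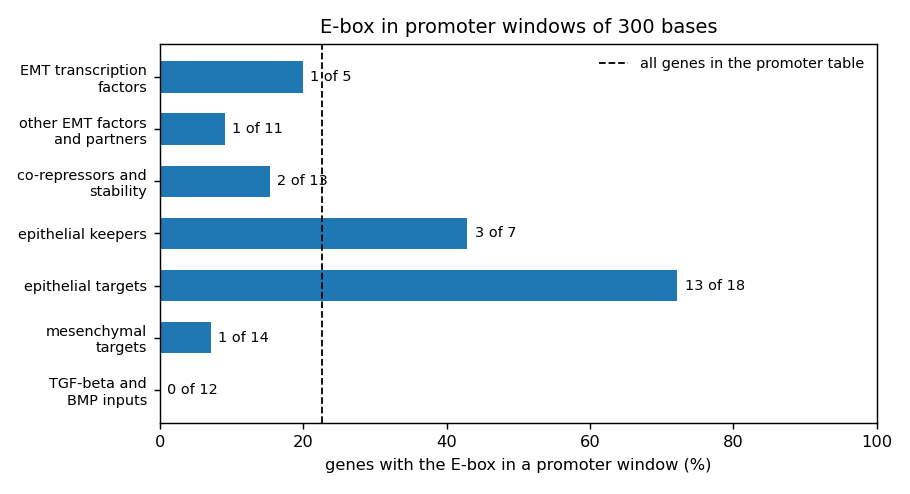
Percent of genes of each list with the E-box in a promoter window of 300 bases (bars from 0, with the number of genes that hold it of those matched), and the share over all genes of the promoter table as a dashed line (22.6%). The epithelial targets stand highest at 72.2%, and the EMT transcription factors hold it in 1 of 5.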

How the data were processed

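Per the labels and the study's methods, the authors trimmed paired reads of 150 bases with Cutadapt 5.2, aligned them with STAR 2.7.11b to GRCm39 and counted read pairs per gene with featureCounts 2.0.8 in reverse-stranded mode. They deposited raw counts, whole numbers without normalization, for 50763 genes in 10 columns. Sequenced depth is not used here. The totals over genes (24073311 to 31908525) are the depth behind each value.

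Counts were fitted here in R 4.3.3 with edgeR 4.0.16 (TMM factors, robust quasi-likelihood fit, 3 groups, all 10 libraries, Benjamini-Hochberg adjustment within each contrast). The submitters' notes name edgeR 4.6.3. Genes entered by filterByExpr (minimum count 10, 18058 genes). A filter of 2 FPKM in 5 libraries, modelled on the study's, would have removed 5 of the 7 members at the exon lengths used here. FPKM used exon lengths of GENCODE vM39 Primary transcripts, which exist for 43252 genes by symbol. Mean FPKM used TMM-scaled totals, whereas percentiles and the minimum of 2 FPKM used library totals without TMM factors. Likeness used log2 CPM with a prior count of 2. Alternatives used DESeq2 1.42.0, limma 3.58.1 (voom), other normalizations, filters and designs, and leaving out each library. Leaving out libraries for the gene lists was added after seeing the data.

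The members and lists were chosen with earlier results of these data known. Named are the members, up to 4 DEGs and the 2 most abundant genes of a list, Tgfb1, Cdh1, Cdh2, Vim, Acta2 and the 3 genes most like each member, and for the marker lists only those beside a result. Scripts were tested on simulated data.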

Additional observations from a re-analysis of the deposited data

How the results depend on the processing

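The count of EMT transcription factors called DEG was 0 in each contrast under every alternative run. At the FDR alone the count moved from 0. In OVE918 it was 1 (Zeb1) with DESeq2, upper-quartile normalization, voom and the replicate block. In OVE853 it was 1 (Zeb2) when only the groups compared entered the fit, 1 (Zeb2) under the replicate block, and 2 (Zeb1 and Zeb2) with voom. With 1 library left out it lay between 0 and 2 in OVE853, with 2 only without OVE918 replicate 4. In OVE918 it lay between 0 and 1, with 1 without OVE918 replicate 4 and without WT replicate 1. DEGs over all genes numbered 1244, 1587 and 44 (OVE853, OVE918 and OVE918 against OVE853). With the filter of 2 FPKM they were 491 and 620, and without a minimum fold change 2449, 3050 and 68. With only the groups compared, 825 were called in OVE853 and 168 between the lines. Between the lines DESeq2 gave 212, library totals 141, voom 325 and the replicate block 6. Leaving out a library gave 592 to 1982, 1291 to 2114 and 0 to 172, with 592 without OVE853 replicate 3, 610 without replicate 1, 762 without replicate 2 and 1982 without WT replicate 1. The cause was not tested.

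Signs turned only for values near 0 or from few counts. Snai1 in OVE918 was -0.0527 with library totals, -0.0038 under the replicate block and -0.10 to 0.27 with a library left out. Zeb1 between the lines was -0.17 with library totals, -0.0049 with the FPKM filter and -0.0575 to 0.12 with a library left out. Snai2 in OVE918 was 0.61 with voom, which gave 1.20 in OVE853 where edgeR gave 0.13. With a library left out, Snai2 covered -0.34 to 0.80 for OVE853 against WT and -0.75 to 0.37 for OVE918 against WT, and Twist1 covered -1.11 to 0.43 for OVE853. Replicate numbers are shared across groups. Deviations of same-numbered libraries from their group means had r from -0.344 to 0.265 over 9 pairs (1 over 0.1). Differently numbered libraries ranged from -0.394 to 0.446. A pairing of the pools by number was not seen, but so few libraries per group cannot exclude it. With exon lengths of all transcripts in place of Primary ones, mean FPKM in WT was 2.41 for Zeb1, 3.08 for Zeb2 and 1.05 for Prrx1, so that Prrx1 stood below Snai1 (1.14), while Zeb2 stayed above Zeb1. Few counts and the spread between pools both limit Snai2, Twist1 and Twist2.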
